A study of Oryctolagus cuniculus with 4 samples.

Results

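The interferon response genes examined here were the 30 genes of the rabbit gene table whose symbols belong to the interferon, IFI, IFIT, IRF, ISG, STAT, OAS, GBP and JAK families or to the PSMB8 and TAP1 pair of antigen processing genes. They were picked by symbol alone out of 18475 genes, of which 9771 carried a symbol. The list of families was set with earlier results of these data known. Their roles were 4 interferons (IFNB1, IFNE, IFNK and IFNG), 2 receptor chains (IFNGR1 and IFNLR1), 2 kinases (JAK1 and JAK2), STATs such as STAT3 and STAT4, interferon regulatory factors such as IRF1, IRF2 and IRF5, the IRF2-binding protein IRF2BPL, the RNA sensor IFIH1, 8 effectors, the GTPase GBP1, and PSMB8 and TAP1. Genes such as MX1, ISG15, IFNAR1 and STAT2 were not analysed here.

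Interferons are secreted signals that bind cell surface receptors, which act through JAK kinases to phosphorylate STAT proteins. The STATs and the interferon regulatory factors then switch on a set of genes whose products degrade viral RNA, block translation, sense foreign RNA, or cut and carry peptides for display to T cells. Type I interferons such as IFNB1 act on nearly all nucleated cells, IFNG comes mainly from T cells and natural killer cells, and the receptor of type III interferons is known for its restriction largely to epithelia.

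The data were single-cell transcriptomes of bladder mucosa from adult New Zealand rabbits, prepared with the 10x Genomics 3' v3 chemistry. Injury_1 and Injury_2 came from rabbits on day 10 after focal resection of the mucosa, when new urothelium had just covered the wound. Normal_1 and Normal_2 came from mucosa under homeostasis, so that each condition had 2 samples with 1 library each. The labels name no transgene or drug in either group.

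After filtering, Injury_1 held 6081 cells, Injury_2 5529, Normal_1 4308 and Normal_2 6027, with medians of 4814 to 7186 UMIs (unique molecular identifiers, counted RNA molecules) per cell. Any pair of libraries shared 4 to 12 cell barcodes among the kept cells. The samples were labelled urothelium, but cells with epithelial markers made up 6.98% of the cells, fibroblast-like cells 40.6% and endothelial-like cells 24.7%. Normal_1 was the shallowest library, and 1388 of its barcodes lay over the mitochondrial limit against 593 to 856 in the others. Macrophage-, neutrophil- and T cell-like cells were more numerous in both injured samples. Cell classes were rebuilt from marker genes and carry the ending "-like". Since 13 of the 30 genes were among the 2000 genes used for clustering, their levels across classes are a description. Levels are given in CPM, the UMIs of a gene per 1000000 UMIs of all genes in the cells of that class in that sample, and are compared between classes or samples for 1 gene at a time.

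**Figure D1:**
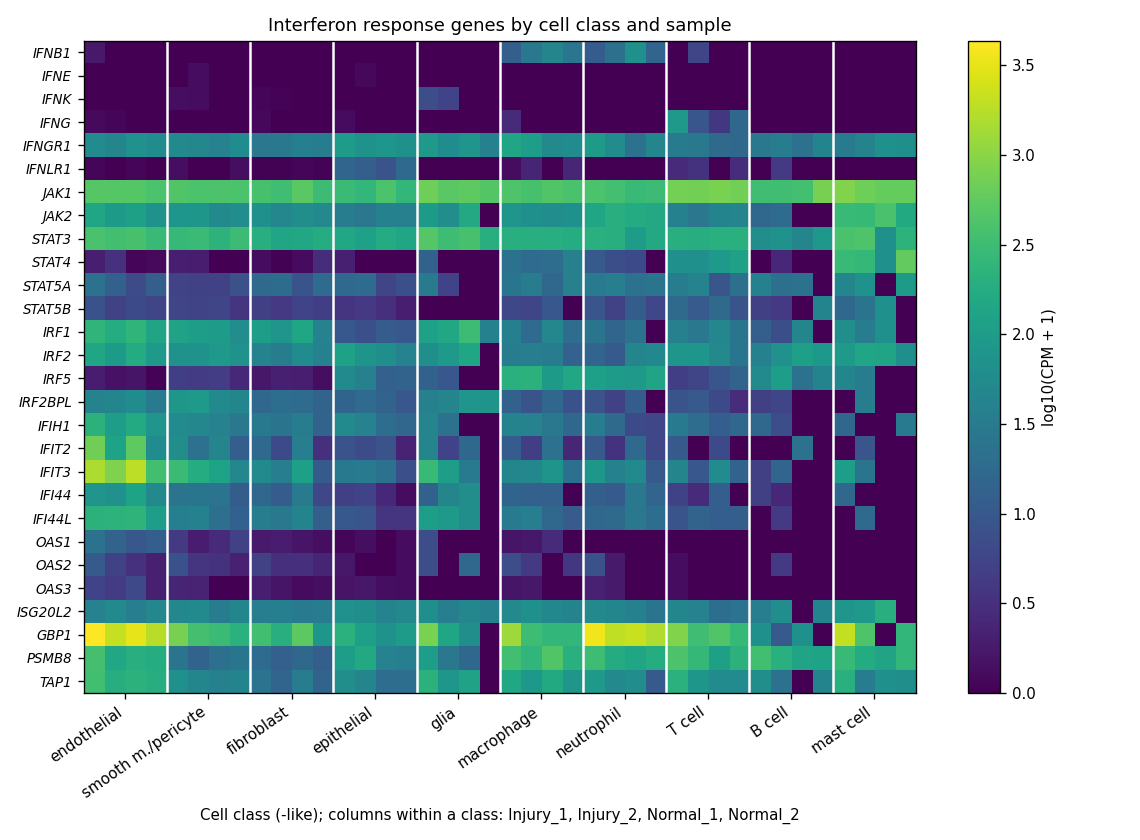
Level of 28 of the genes (rows, ordered from ligands to antigen processing) in each cell class and sample (columns, 4 samples per class), as log10(CPM + 1). The bright block at left is the endothelial-like class, where IFIT2, IFIT3, IFI44L, IFIH1 and GBP1 were high in samples of both conditions. Levels varied between samples: there Normal_1 was 9.48 times Normal_2 for IFIT2 and 5.51 times for IFIT3.

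Among the ligands, IFNB1, the classical type I interferon, was detected in 61 of all kept cells with 234 UMIs. Of these UMIs, 68.8% lay in macrophage-like cells and 25.2% in neutrophil-like cells. The macrophage-like level of IFNB1 was 11.7 CPM in Injury_1 and 27.6 in Injury_2, against 43.7 in Normal_1 and 26.3 in Normal_2, so that the groups overlapped. The share of macrophage-like cells with an IFNB1 UMI was 3.20% (95% exact binomial interval 1.76 to 5.32) in Injury_1 and 5.54% (3.51 to 8.27) in Injury_2, against 4.90% (1.61 to 11.1) in Normal_1 and 6.12% (2.28 to 12.9) in Normal_2. Such intervals cover counting error only. IFNB1 was not detected in the 8912 fibroblast-like cells, which limits the share of such cells with an IFNB1 UMI to 0.0337% and says nothing of cells that express the gene without yielding a UMI. Their median depth of 5137 to 8451 UMIs per sample stood beside the 5907 to 6687 of the macrophage-like cells.

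Within the macrophage-like cells, cluster 12, led by the complement genes C1QA, C1QB and C1QC, held 160 of the 161 IFNB1 UMIs. The neutrophil-like IFNB1 UMIs, 59 in number, lay in cluster 14, led by SERPINB2, IL1B, LYZ and S100A8. Cells of that cluster were called neutrophil-like in this clustering and macrophage-like in the other 3 clusterings tried, so that they are named here by rule only. The fitted IFNB1 difference between injured and normal macrophage-like cells was -0.96 on the log2 scale (standard error, SE, 0.522, edgeR adjusted p = 0.475).

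IFNG, the type II interferon, was found mostly in T cell-like cells, which held 93.7% of its 303 UMIs. Its T cell-like level was 88.1 CPM in Injury_1 and 8.28 in Injury_2, against 2.83 in Normal_1 and 15.4 in Normal_2. Injury_1 alone thus held 261 of the 284 IFNG UMIs of the class, spread over 76 of its 639 T cell-like cells, while Injury_2 lay below Normal_2. The share of T cell-like cells with an IFNG UMI was 11.9% (95% exact binomial interval 9.49 to 14.7) in Injury_1 and 2.36% (1.02 to 4.60) in Injury_2, with 1.00% (0.0253 to 5.45) in Normal_1 and 5.45% (2.03 to 11.5) in Normal_2. The fitted difference was 2.08 (SE 1.51, edgeR adjusted p = 0.594). Left without Injury_2, the same fit gave 2.91 with an adjusted p of 0.00575, a value that rests on Injury_1 alone.

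The other interferons were nearly absent at this depth. IFNK, known from keratinocytes, had 9 UMIs in the injured samples and 0 in the normal ones, with 4 UMIs in Injury_1 and 5 in Injury_2. Of these, 4 lay in fibroblast-like, 2 in glia-like and 2 in smooth muscle and pericyte-like cells, and 0 in the 1531 epithelial-like cells. IFNE, an interferon of epithelial surfaces in the reproductive tract, had 2 UMIs, both in Injury_2.

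The receptor chains showed different spreads over cell classes. IFNLR1, the ligand-specific chain of the type III interferon receptor, had 90.6% of its UMIs in epithelial-like cells, where its level was 14.4 CPM in Injury_1 and 11.8 in Injury_2, against 7.59 in Normal_1 and 16.2 in Normal_2. The groups overlapped (log2 difference -0.14, SE 0.481, edgeR adjusted p = 0.902). IFNGR1, the ligand-binding chain of the IFNG receptor, was found in every class. Its macrophage-like level was 140.0 CPM in Injury_1 and 107.8 in Injury_2, against 52.5 in Normal_1 and 58.3 in Normal_2, and both injured samples lay above both normal ones. This difference of 0.99 (SE 0.236) did not pass the threshold (edgeR adjusted p = 0.178). In endothelial-like cells IFNGR1 lay the other way, at 55.8 and 44.2 CPM in the injured and 67.3 and 58.0 CPM in the normal samples, also short of the threshold (adjusted p = 0.784).

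Of the signal carriers, JAK1, the kinase shared by all interferon receptors, was broad, from 252 CPM in epithelial-like cells of Injury_2 to 895 CPM in mast cell-like cells of Injury_1. Within T cell-like cells it held a narrow range of 721 to 797 CPM. STAT3, a STAT also used by interleukin 6 family receptors, was 391 and 344 CPM in the injured and 379 and 290 CPM in the normal endothelial-like samples. STAT4, the STAT of interleukin 12 signalling, had 51.1% of its UMIs in T cell-like cells, at 65.8 CPM in Injury_1 and 65.0 in Injury_2, against 90.5 in Normal_1 and 119 in Normal_2. The injured T cell-like samples lay below the normal ones for STAT4 (log2 difference -0.86, SE 0.264, edgeR adjusted p = 0.22). Mast cell-like cells had a mean of 295 CPM of STAT4 ± 211 (SD, n = 4), from 106 cells and 69 UMIs in all.

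The interferon regulatory factors split by lineage. IRF5, which acts downstream of Toll-like receptors, had 53.0% of its UMIs in macrophage-like cells and 25.6% in epithelial-like cells. Its macrophage-like level was 202 CPM in Injury_1 and 219 in Injury_2, against 94.5 in Normal_1 and 152 in Normal_2 (log2 difference 0.60, SE 0.294, edgeR adjusted p = 0.435). IRF1, an activator induced by IFNG, and its antagonist IRF2 were highest in endothelial-like cells on average. The IRF1 level there was 243 and 179 CPM in the injured samples and 240 and 131 CPM in the normal ones. For IRF2 it was 136 and 96.0 CPM after injury and 171 and 92.2 CPM without. Neither IRF1 nor IRF2 exceeded the next class in all 4 samples.

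**Figure D2:**
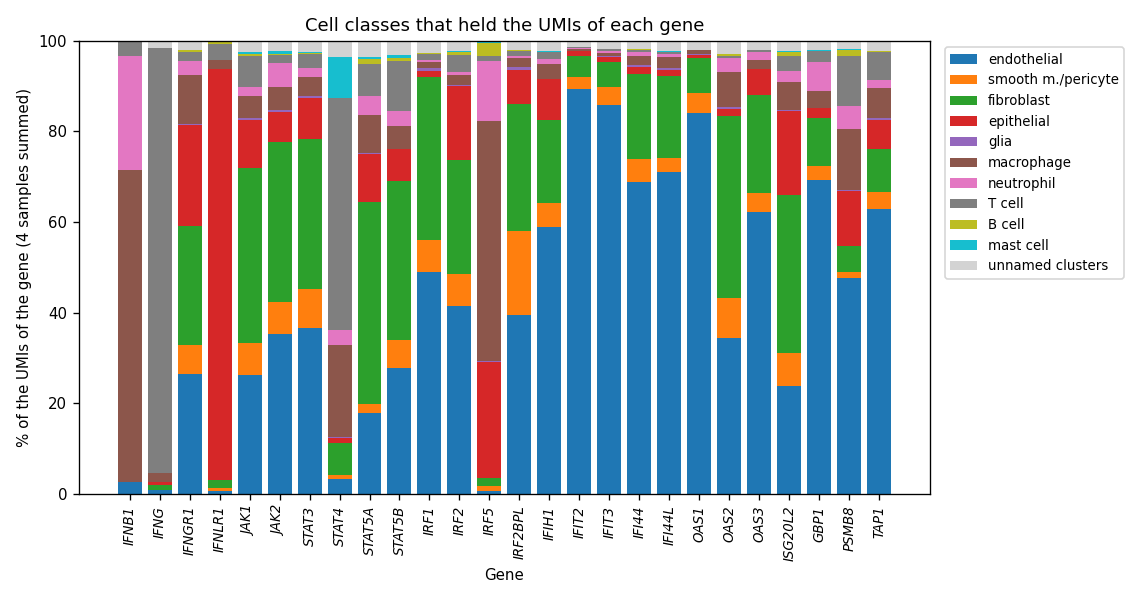
Share of each gene's UMIs (y axis, percent, 4 samples summed) that lay in each cell class, for 26 of the genes, without IFNE and IFNK, which had few UMIs. IFNB1 lay in macrophage- and neutrophil-like cells, IFNG in T cell-like cells, IFNLR1 in epithelial-like cells, and IFIT2, IFIT3 and OAS1 mostly in endothelial-like cells.

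The induced genes themselves were concentrated in endothelial-like cells. These cells held 22.8% of all UMIs, but 89.4% of those of IFIT2, 85.9% of IFIT3, 84.1% of OAS1, 70.9% of IFI44L, 69.3% of GBP1, 68.8% of IFI44, 62.8% of TAP1, 62.3% of OAS3 and 58.9% of IFIH1. IFIT2 and IFIT3 are tetratricopeptide repeat proteins of the antiviral response, OAS1 and OAS3 make the oligoadenylates that switch on RNase L, and TAP1 carries peptides into the endoplasmic reticulum. OAS2 was an exception among the effectors, with 34.3% of its UMIs in endothelial-like and 40.0% in fibroblast-like cells. The fibroblast-like cells held 42.9% of all UMIs, so that OAS2 was not enriched there. ISG20L2, a nuclease that works in ribosome assembly, was spread broadly, with 23.8% in endothelial-like cells. IFIT2 with IFIT3, the OAS genes, and IFI44 with IFI44L are related families whose reads may have been shared or lost between copies, so that the split between members is uncertain.

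The levels in the endothelial-like cells were as follows. IFIT3 was at 1546 CPM in Injury_1 and 857 in Injury_2, against 1865 in Normal_1 and 339 in Normal_2. The next class on average, smooth muscle and pericyte-like cells, had 298, 179, 130 and 47.9 CPM of IFIT3 in the same order, lower than the endothelial-like cells in all 4 samples. IFIT2 was at 707, 130, 546 and 57.6 CPM in Injury_1, Injury_2, Normal_1 and Normal_2. For both genes the highest and the lowest sample of each condition stood far apart, and the lowest sample was a normal one.

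GBP1, an interferon-induced GTPase that attacks the vacuoles of intracellular microbes, was at 4347 CPM in Injury_1 and 2048 in Injury_2, against 3141 in Normal_1 and 1772 in Normal_2. GBP1 was the effector with a second strong class, since neutrophil-like cells had 3584, 1923, 2136 and 1590 CPM in the same order. Of these 604 cells, 391 were of cluster 14, which was called macrophage-like in the other clusterings tried. TAP1 was at 348, 186, 219 and 185 CPM, above the macrophage-like cells in each sample, and IFIH1, the sensor of long double-stranded RNA also called MDA5, at 217, 104, 165 and 77.8 CPM. IFI44L, a relative of IFI44, was at 214, 227, 232 and 105 CPM. PSMB8, a catalytic subunit of the immunoproteasome, was not particular to the class by level: endothelial-like cells had 365, 150, 195 and 180 CPM of PSMB8 and macrophage-like cells 349, 249, 443 and 206 CPM.

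When the 30 genes were left out of the clustering, the endothelial-like class formed without them still lay above the next class in 4 of 4 samples for IFIH1, IFI44, IFI44L, IFIT2, IFIT3, OAS1 and OAS3. For TAP1 it did so in 3 of 4, with 174 CPM against 308 in the neutrophil-like class in Injury_2. For IFIH1 and IFIT3 the next class was also neutrophil-like. That class had 213 cells in all, against 604 in the neutrophil-like class described above, and so was a different set. It had 5 cells in Normal_1 and 15 in Normal_2, with IFIH1 at 0 CPM in both. With 4 samples an exact sign-flip test cannot give a two-sided p under 0.125. For GBP1 no class stood highest throughout: a neutrophil-like class of that clustering had 7825 CPM in Injury_1 and 3561 in Injury_2 but 440 in Normal_1, from 5 cells, and 344 in Normal_2, above the endothelial-like cells in the injured samples and below them in the normal ones. Markers of macrophages were present in the endothelial-like cells at a low level: 7 of them summed to 63.7 CPM in Injury_1 and 30.2 in Injury_2, against 7.89 in Normal_1 and 5.96 in Normal_2, with 5 of the 7 higher in both injured samples and none at 0. Their part in the values of the members was not tested.

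**Figure D3:**
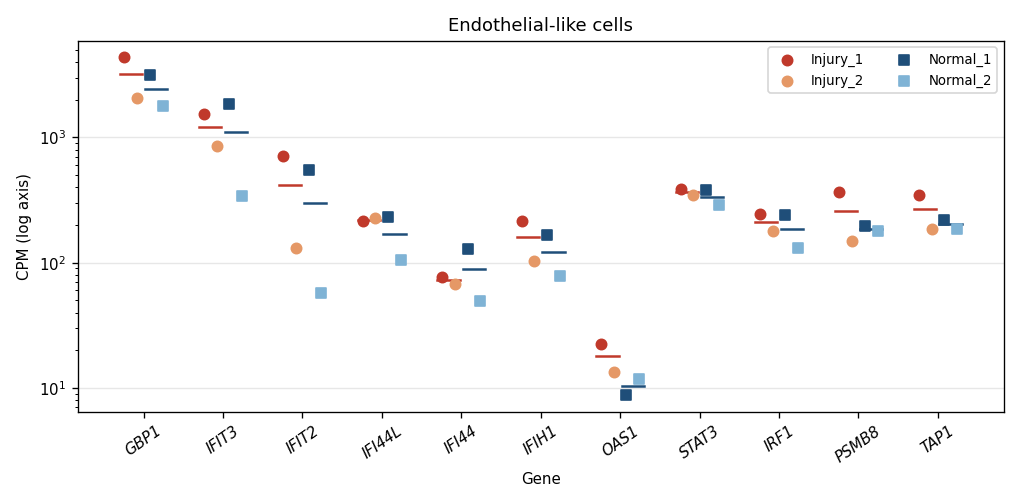
Level of 11 interferon response genes in the endothelial-like cells of each sample, on a log CPM axis, with circles for injured and squares for normal samples and a bar at each condition mean (n = 2). For IFIT3 the Normal_1 sample at 1865 CPM lay above both injured samples and Normal_2 at 339 CPM lay below them.

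In endothelial-like cells no member passed the test between injured and normal samples. Of the 22 members tested in this class, 0 passed the threshold (edgeR quasi-likelihood test, adjusted p below 0.05), and of all 7529 genes tested 0% did. The unadjusted p was under 0.05 for 1 member, beside 6.97% of all genes, and DESeq2 called 0. The fitted IFIT3 difference was 0.11 (SE 0.708, adjusted p = 0.985) and that of GBP1 0.32 (SE 0.42, adjusted p = 0.923). The mean of the injured samples was 1.09 times that of the normal samples for IFIT3, whereas Normal_1 was 5.51 times Normal_2 and Injury_1 was 1.80 times Injury_2. For IFIT2 the corresponding ratio was 1.39 between conditions, 9.48 between the normal rabbits and 5.45 between the injured ones. Without Injury_1 the IFIT3 difference turned to -0.37 and the GBP1 difference to -0.32, and without Normal_2 the IFIT3 difference turned to -0.60.

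The member with the smallest p in endothelial-like cells was OAS2, at 9.69 CPM in Injury_1 and 4.12 in Injury_2, against 2.28 in Normal_1 and 1.08 in Normal_2. Both injured samples lay above both normal ones, on 13 to 78 UMIs per sample. The difference of 2.00 (SE 0.571) had an unadjusted edgeR p of 0.0134 and an adjusted p of 0.544. Both injured samples lay above both normal samples for 4 of the 22 tested members (among them STAT5A, OAS1 and OAS2), beside 24.5% of all genes tested.

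The number of endothelial-like cells in which several induced genes were seen together varied in the same way. Each cell was thinned to 1000 UMIs and scored for 9 genes of a core interferon-stimulated list (among them IFIT2, IFIT3, OAS1, OAS2, OAS3, IFI44, IFI44L and IFIH1). At least 3 of them were present in 22.7% (95% exact binomial interval 20.3 to 25.2) of the endothelial-like cells of Injury_1, 7.59% (5.92 to 9.56) of Injury_2, 18.7% (16.9 to 20.6) of Normal_1 and 2.47% (1.76 to 3.36) of Normal_2. Between 1 and 10 cells per sample held fewer UMIs than this and were left out. Without thinning the shares were 79.8, 60.1, 72.0 and 44.8%. The difference of 4.58 percentage points between conditions was smaller than the gap between rabbits of one condition (exact permutation test, two-sided p = 0.667, the smallest possible being 0.333). In fibroblast-like cells the share was 0.0912 to 0.71%, and among the other classes with over 100 cells in a sample the highest share was 0.888%.

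The endothelial-like cells were not uniform. Cluster 0, led by ESM1 and KDR, and cluster 5, led by the adhesion molecules SELP and SELE, had mean GBP1 levels of 3094 CPM ± 1180 and 3029 ± 1334 (SD, n = 4), and cluster 9, led by ATP2A3 and BMX, had 1485 ± 1106. Cluster 5 had IFIT3 itself among its 10 leading genes. Cluster 27, with 89 cells, was led by CCL21, MMRN1, PROX1 and LYVE1, of which PROX1 is known as the master factor of lymphatic endothelium. In cluster 27 GBP1 was at 149 CPM in Injury_1 and 28.4 in Injury_2, on 34 UMIs over all samples, against 3049 and 805 CPM in cluster 9. IFIT3 was at 31.1 and 35.5 CPM in cluster 27 against 1147 and 444 CPM in cluster 9.

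Of the 17 members with at least 1000 UMIs in endothelial-like cells, a limit set after the values were seen, 14 were lower in cluster 27 than in each of the other clusters in both injured samples. The exceptions were IFNGR1, ISG20L2 and JAK1, with JAK1 at 497 and 490 CPM in cluster 27. Cluster 27 held 89 of the 5412 endothelial-like cells, so that members met the limit mainly through the other clusters. The share of all genes lower in cluster 27 was not computed, so that the count is not read as a trait of the members. Normal samples gave 9 and 0 cells of this cluster, so that injured samples alone carried the comparison. Of its cells, 16.9% were among the highest doublet scores, against 2.49% of cluster 0. Of the 30 genes, 13 were among those the cells were clustered on, so that no test was made.

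**Figure D4:**
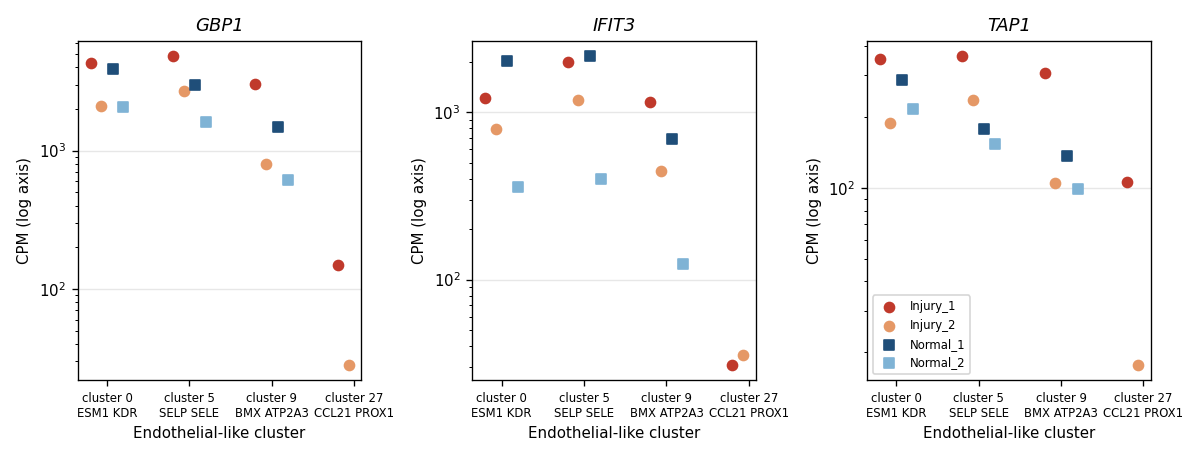
Levels of GBP1, IFIT3 and TAP1 (log CPM axes) in the 4 endothelial-like clusters, 1 point per sample, circles for injured and squares for normal samples. Cluster 27 shows the 2 injured samples only, since Normal_1 and Normal_2 gave fewer than 10 cells. Its points for GBP1, at 149 and 28.4 CPM, lie below those of every other cluster.

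In the epithelial-like cells, by contrast, 1 member passed the test between conditions. The direction of the differences was no contrast. It was positive for 16 of 22 members in epithelial-like cells, beside 49.8% of all genes, and for 18 of 22 in endothelial-like cells, beside 48.8%. PSMB8, the immunoproteasome subunit, rose from 40.0 CPM in Normal_1 and 35.1 in Normal_2 to 109 in Injury_1 and 162 in Injury_2. The difference was 1.61 on the log2 scale (SE 0.292, edgeR adjusted p = 0.0475), and the mean level was 3.60 times as high after injury. Thus 1 of 22 tested members was called higher and 0 lower, beside 0.909% of all 7041 genes called higher, 1.46% called lower and 2.37% called in either direction.

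Both injured samples lay above both normal ones for 15 of the 22 tested members, against 39.4% of all genes tested, and below for 1, against 15.6%. The median mitochondrial share of the epithelial-like cells moved with the condition, at 8.14 and 9.24% after injury and 10.2 and 10.7% without. The median log2 difference of the members was 0.60 against -0.0026 for all genes, and at a mitochondrial limit of 10% it was 0.55 over 21 members tested. The unadjusted p was under 0.05 for 9 of the 22, beside 20.6% of all genes. Without the scaling for composition (TMM), the median of all genes itself lay 0.23 higher after injury on the log2 scale, so that shares and levels in plain CPM lean upward by that amount.

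Among the other epithelial-like members, IRF5 was at 53.0 CPM in Injury_1 and 37.6 in Injury_2, against 11.9 in Normal_1 and 13.3 in Normal_2, with no overlap of the conditions. Its difference of 1.59 (SE 0.315) had an adjusted p of 0.0579 by edgeR. IFIH1 was at 53.0 and 39.5 CPM after injury and 18.96 and 14.9 CPM without (difference 1.20, SE 0.279, adjusted p = 0.0773). TAP1, which works with the immunoproteasome in peptide supply, was at 61.8 and 43.6 CPM against 18.8 and 19.6 CPM (1.20, SE 0.296, adjusted p = 0.0866).

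The effectors were low in epithelial-like cells. IFI44L was at 8.97 and 8.19 CPM after injury and 2.65 CPM in each normal sample (1.45, SE 0.409, adjusted p = 0.118), and IFI44 at 3.86 and 4.45 CPM against 1.52 and 0.331 CPM (1.79, SE 0.626, adjusted p = 0.177). IFIT3, at 28.8 and 30.1 CPM after injury, was at 21.4 CPM in Normal_1 and 6.63 CPM in Normal_2. JAK1, JAK2, STAT3 and IRF1 had negative differences of -0.46 to -0.59, with adjusted p of 0.274 to 0.438.

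**Figure D5:**
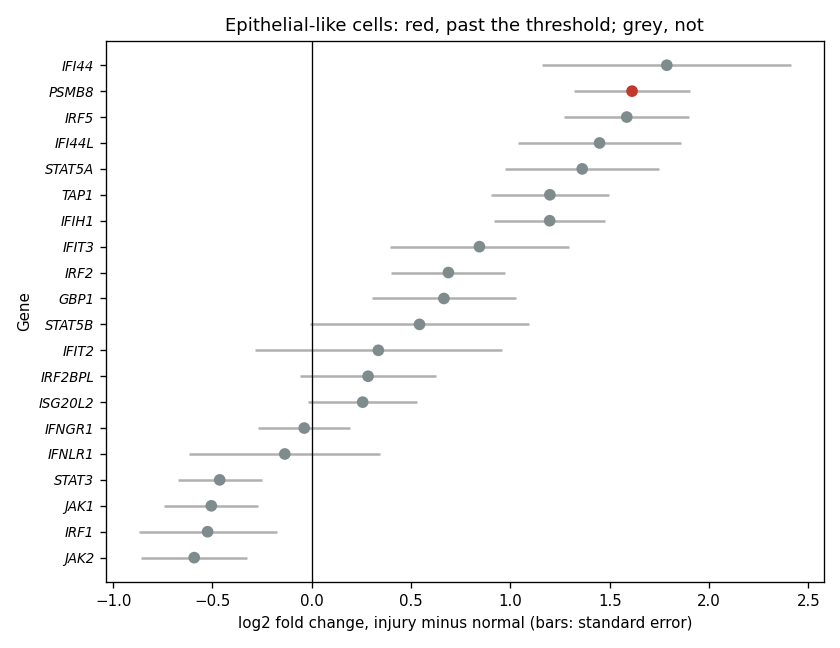
Log2 difference between injured and normal samples in epithelial-like cells for 20 of the members tested (points), with bars of 1 standard error. PSMB8 in red, at 1.61, passed the threshold. IFI44, IRF5, IFI44L, STAT5A, TAP1 and IFIH1 lay to the right of 0.9 without passing it.

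The PSMB8 call stood near the threshold. It was lost without Injury_2 (1.24, edgeR adjusted p = 0.244), without Normal_1 (1.59, adjusted p = 0.0703) and at a mitochondrial limit of 10% (1.51, adjusted p = 0.0788). In clusters taken singly, an alternative chosen after the values were seen, the cells of cluster 8, led by SPP1, SF3B2 and CRISP3, had 100.3 and 148 CPM after injury and 47.1 and 38.6 CPM without (1.40, adjusted p = 0.0924). Those of cluster 10, led by SERPINB5, AQP3 and the basal keratin KRT5, had 118 and 177 CPM against 34.1 and 34.0 CPM (1.80, adjusted p = 0.0243). In cluster 10 IRF5 also passed the test, with a difference of 2.30 and an adjusted p of 0.022, against 0.90 and 0.364 in cluster 8. Whether the difference itself differed between the clusters was not tested.

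Among the neutrophil, macrophage and T cell marker lists, only the neutrophil sum moved with the epithelial-like comparison. The macrophage and T cell sums overlapped between conditions. The 4 neutrophil markers (S100A9, S100A8, IL1B and CD14) summed to 136 CPM in Injury_1 and 138 in Injury_2, against 32.8 in Normal_1 and 69.3 in Normal_2, and 3 of the 4 were higher in both injured samples. The 7 macrophage markers summed to 94.1, 26.9, 9.10 and 61.0 CPM and the 5 T cell markers to 17.1, 7.66, 4.55 and 9.28 CPM, with none of these at 0. The 5 fibroblast markers summed to 1138, 1583, 129 and 1758 CPM. The part of these markers in the result was not tested beyond a removal of cells. Epithelial-like cells that held a UMI of PTPRC, CORO1A, C1QA, C1QB, CSF1R, CD2 or ZAP70 were left out. This removal used none of the 4 neutrophil markers. It took out 45 and 14 cells of the injured and 4 and 9 cells of the normal samples. The PSMB8 difference was then 1.65 (edgeR adjusted p = 0.0372) and that of IRF5 1.58 (adjusted p = 0.0488).

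Of 63 further genes listed for the interferon pathway, 36 were found by symbol and 29 could be tested in epithelial-like cells, where 2 were called higher and 0 lower, beside 0.909% of all genes called higher and 1.46% lower. DDX60, a helicase that aids RNA sensing, was at 31.7 CPM in Injury_1 and 20.5 in Injury_2, against 1.14 in Normal_1 and 2.65 in Normal_2 (log2 difference 3.61, SE 0.53, edgeR adjusted p = 0.0286). UBA7, the activating enzyme that starts ISG15 conjugation, was at 17.4 and 14.2 CPM against 2.28 and 2.65 CPM (2.45, SE 0.398, adjusted p = 0.0351). The epithelial-like cells held 5273110 UMIs in Normal_1 and 3016877 in Normal_2, so that the normal levels of DDX60 and UBA7 rest on few UMIs. These calls were not tried under the alternatives given for PSMB8. The median difference of the 29 genes was 0.64, against -0.0026 over all genes tested. In the other 6 classes compared, 0 of the 21 to 34 listed genes tested passed the threshold.

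In the remaining classes none of the members passed the edgeR test, with DESeq2 calling 0 in each as well. In fibroblast-like cells 24 members were tested and 1 had an unadjusted p under 0.05, beside 9.98% of all genes at that limit and 0% past the adjusted threshold. In smooth muscle and pericyte-like cells 6 of 19 had an unadjusted p under 0.05, beside 9.57% of all genes at that limit and again 0% past the adjusted threshold. There both injured samples lay above both normal ones for 11 of the 19, against 20.3% of all genes tested. The median mitochondrial share of these cells was 8.74 and 9.65% after injury and 12.04 and 12.5% without. The median log2 difference of the members was 0.52, and at a mitochondrial limit of 10% it was 0.11, over 17 members tested. IFI44L was at 35.9 and 38.9 CPM after injury and 21.3 and 12.6 CPM without (1.19, SE 0.312, adjusted p = 0.324), and IFIT3 at 298 and 179 CPM against 130 and 47.9 CPM (1.47, SE 0.477, adjusted p = 0.422).

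In macrophage-like cells 2 of 21 members had an unadjusted p under 0.05, in neutrophil-like cells 3 of 17 and in T cell-like cells 5 of 18. At the same unadjusted limit stood 13.3%, 7.43% and 14.8% of all genes in these classes. Further, 0% of all genes in the macrophage-like, 0% in the neutrophil-like and 0.176% in the T cell-like comparison (0.0439% higher and 0.132% lower after injury) passed the adjusted threshold. Both injured samples lay above both normal ones for 8 of 21 members in macrophage-like cells, 6 of 17 in neutrophil-like cells and 8 of 18 in T cell-like cells, beside 33.5%, 18.1% and 34.8% of all genes tested. GBP1 in macrophage-like cells was at 1267 CPM in Injury_1 and 319 in Injury_2, against 257 in Normal_1 and 255 in Normal_2, so that Injury_1 stood apart (1.44, SE 0.624, adjusted p = 0.41). In T cell-like cells PSMB8 was at 415 and 263 CPM after injury and 116 and 217 CPM without (0.83, SE 0.362, adjusted p = 0.352), and TAP1 at 211 and 82.2 CPM against 56.5 and 55.7 CPM (1.20, SE 0.448, adjusted p = 0.293).

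The effect of injury on the members was compared directly between classes, within the same rabbits. None of the members passed the edgeR test of the difference for endothelial-like against fibroblast-like cells (24 tested, 2 with an unadjusted p under 0.05 beside 9.23% of all genes, 0% of all genes called), for epithelial-like against fibroblast-like cells (23 tested, 5 under 0.05 beside 16.7%, 1.58% called) or for epithelial-like against endothelial-like cells (25 tested, 6 under 0.05 beside 14.6%, 0.942% called). DESeq2 called 0 in each. The nearest was IFI44, whose fitted injury effect was higher in epithelial-like than in endothelial-like cells by 2.33 on the log2 scale (SE 0.473, edgeR adjusted p = 0.0715). That value did not pass the threshold and rests on 62 IFI44 UMIs in all epithelial-like cells. For PSMB8 the same difference was 1.39 (SE 0.717, adjusted p = 0.463), so that its rise was not shown to be particular to the epithelial-like cells.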

How the data were processed

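The deposited values were whole-number UMI counts per gene and cell, which the authors made with Cell Ranger 6.0.1 from 10x 3' v3 libraries. Barcodes with at least 500 UMIs, 200 genes and at most 15% mitochondrial UMIs were kept. Cells were integrated and clustered in Seurat 5.3.0 (2000 features, 30 components, resolution 0.8), and clusters were named from fixed marker lists. Scrublet scored doublets, which were kept. UMIs were summed per sample and class. Classes with at least 20 cells in every sample were tested in edgeR 4.0.16 by quasi-likelihood (TMM, robust, filterByExpr), with Benjamini-Hochberg adjustment over all genes tested and a threshold of 0.05. Differences between classes were fitted as interactions with rabbit as a block. DESeq2 1.42.0 was an alternative. The tests were tried on simulated data. Each library is taken as 1 rabbit. The edgeR p-values set the difference between conditions against the spread between these samples, which was estimated partly from the other genes tested.

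The members and lists were chosen with earlier results of these data known. Values in every sample were to be given for the members past the threshold and for those with a mean of at least 100 CPM in a class, with all ligands and receptors. Depth was 28745017 to 47881609 UMIs per library. Mast, B cell and glia-like cells were too few for tests. Results for some of the genes are not reported here.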

Additional observations from a re-analysis of the deposited data

How the results depend on the processing

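The count of called members in epithelial-like cells was 1, but it was 6 without the expression filter, 4 with DESeq2, 2 with library sizes alone, 2 without cells holding an immune UMI, 2 in cluster 10 alone, 0 in cluster 8 alone, 0 at a mitochondrial limit of 10%, and 0 to 5 with 1 sample left out. Without the expression filter it was 2 in smooth muscle and pericyte-like, 3 in macrophage-like, 1 in neutrophil-like and 4 in T cell-like cells. For the differences between classes it was then 1 for endothelial-like against fibroblast-like, 3 for epithelial-like against fibroblast-like and 6 for epithelial-like against endothelial-like cells, the last giving 1 without high doublet scores. With 1 sample left out the count ran from 0 to 4 in smooth muscle and pericyte-like, 0 to 2 in macrophage-like, 0 to 1 in neutrophil-like and 0 to 2 in T cell-like cells, 0 to 6 for epithelial-like against fibroblast-like and 0 to 1 for epithelial-like against endothelial-like cells. The lone sample of a condition is then assumed to vary like the others. The shares of all genes called under each of these settings are not given here. The counts of called members in this section are therefore not read as results about the members. The IFIT3 difference in endothelial-like cells reversed to -0.29 in cluster 0 alone and ran from -0.60 to 1.64 with 1 sample left out, and that of GBP1 from -0.32 to 0.78. The cause was not tested.

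By the labels, samples with the same replicate number share only the number. Over all genes of a class, the correlation of their deviations was -0.0908 to 0.238. Among tested members, replicate 1 was higher in both conditions for 16 of 22 in endothelial-like and 16 of 24 in fibroblast-like cells. It was lower in both conditions for 1 and 2 of them. In epithelial-like cells it was higher for 9 of 22 and lower for 1. The share over all genes was not computed, and the cause was not tested. With the replicate block, 1 member was called in macrophage-like cells and 1 in epithelial-like cells. The library-size, immune-UMI and single-cluster alternatives were chosen after seeing the data. With 2 rabbits per condition and few UMIs for OAS and ligand genes, small differences were not detectable.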
